A study of Homo sapiens with 39 samples.

Results

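The libraries compared here were 12 of the 39 in the series, the 6 from cells given GDC-SAR and the 6 from cells given GDC-0810. They were chosen by their labels, not by any measured value, and each compound was given at 30 nM (3 libraries) and at 300 nM (3 libraries). By the labels, GDC-SAR is a hybrid that keeps the scaffold of GDC-0810 and takes its side chain from SAR439859, so the pair asks what exchanging the side chain on 1 scaffold did to gene expression. All groups used HCC1428-LTED cells, an estrogen receptor-positive human breast cancer line that has been adapted to long-term estrogen deprivation. Cells were kept in medium with 5% charcoal-stripped serum, which removes steroids, and were treated for 24 hours. The other groups read beside the pair were 3 vehicle (DMSO) libraries, 6 SAR439859 libraries, and 6 each of AZD9496 and AZD-SAR, the hybrid with the same side chain on the AZD9496 scaffold, again at 30 and 300 nM. Nothing in the labels says that the 3 libraries of a group came from separate cultures, so the p-values measure the spread between libraries, which may be technical, and 1 cell line stands for all of them.

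Estrogen receptor alpha, encoded by ESR1, is a transcription factor that binds DNA at estrogen response elements and recruits coactivators when it holds an estrogen. A selective estrogen receptor degrader binds in place of the hormone, and its side chain displaces the helix that coactivators need, which can both silence the receptor and mark it for destruction. GDC-0810 (brilanestrant) carries an acrylic acid on its side chain, whereas SAR439859 (amcenestrant) carries a basic fluoropropyl-pyrrolidine. In breast cancer cells the receptor turns on its own set of target genes and, through cyclin D1 and the E2F factors, entry into DNA synthesis.

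RNA was read as TPM (transcripts per 1000000 transcripts), a level that corrects for transcript length and sums to the same total in every library. With a fixed total, a transcript that takes a large share bears on the levels of all others. SNORA76C took the largest share, 12.5 to 16.3% of all TPM, except in GDC-SAR at 300 nM, replicate 3, where MALAT1 led at 10.5%. The GDC-0810 libraries listed between 18493 and 22363 genes above 0, and the GDC-SAR libraries, mostly higher, between 21664 and 25559. The cause of this difference was not tested. Among the genes kept for testing, 190 to 591 were at 0 with GDC-0810 and 262 to 372 with GDC-SAR, ranges that overlap. The fewest genes above 0 were in GDC-0810 at 300 nM, replicate 1, which also had the lowest median correlation with the others (0.941). The first principal component, 17.5% of the variance, overlapped between the compounds (-57.9 to 16.7 with GDC-0810 and -2.41 to 29 with GDC-SAR). The second, 13% of the variance, ran from -28.9 to 1.72 with GDC-SAR and from 4.08 to 28.3 with GDC-0810. GDC-SAR at 300 nM, replicate 3, gave both the 29 on the first and the 1.72 on the second. No index sequence and no identical column was shared among the 12. Luminal marker genes were high with both compounds (summed level over 18 genes 9480 to 11500 TPM with GDC-SAR and 9540 to 13200 with GDC-0810). Marker genes of basal or mesenchymal cells summed to 36.4 to 48.9 and 29.3 to 46.6 TPM over 11 genes. FN1 alone made up most of this sum, with means of 39.2 and 34.2 TPM. Those of stromal, endothelial and immune cells summed to 20 to 31.4 and 17.7 to 23 TPM over 14. COL1A1 (means 13.7 and 10.3 TPM) and CD68 (7.9 and 8.82) made up most of that sum, and LUM and HBB were at 0 in every library. The part of these other-cell levels in the results was not tested.

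Most tested genes of the estrogen-induced list were lower with GDC-SAR than with GDC-0810, and part of the estrogen-repressed list was higher. Both lists were written with earlier results of these data known, so counts over them are descriptions. Of 14404 genes with a mean of at least 1 TPM, limma called 484 (3.36%) at an adjusted p under 0.05, with 228 higher (1.58%) and 256 lower (1.78%) with GDC-SAR, and 2299 (16%) had an unadjusted p under 0.05. In bulk RNA, fewer cells that use a gene and less of its RNA per cell cannot be told apart. Differences are in log2(TPM + 1), GDC-SAR minus GDC-0810 with dose as a block, a scale that understates the change of genes at low levels. Their median over all genes was 0.022. Large differences ran mainly downward, as 48 of the 58 called genes that differed by at least 1 log2 unit were lower with GDC-SAR. In 391 of the 484 called genes the 6 and 6 libraries did not overlap, against 521 (3.62%) of all genes tested, 1.8% lower and 1.82% higher with GDC-SAR. The number higher went to 140 or 151 without GDC-0810 at 30 nM, replicates 2 or 3, to 149 without GDC-SAR at 30 nM, replicate 2, and to 142 without GDC-SAR at 300 nM, replicate 2. The number lower went to 167 without GDC-0810 at 30 nM, replicate 2, and to 164 with no filter on expression.

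**Figure D1:**
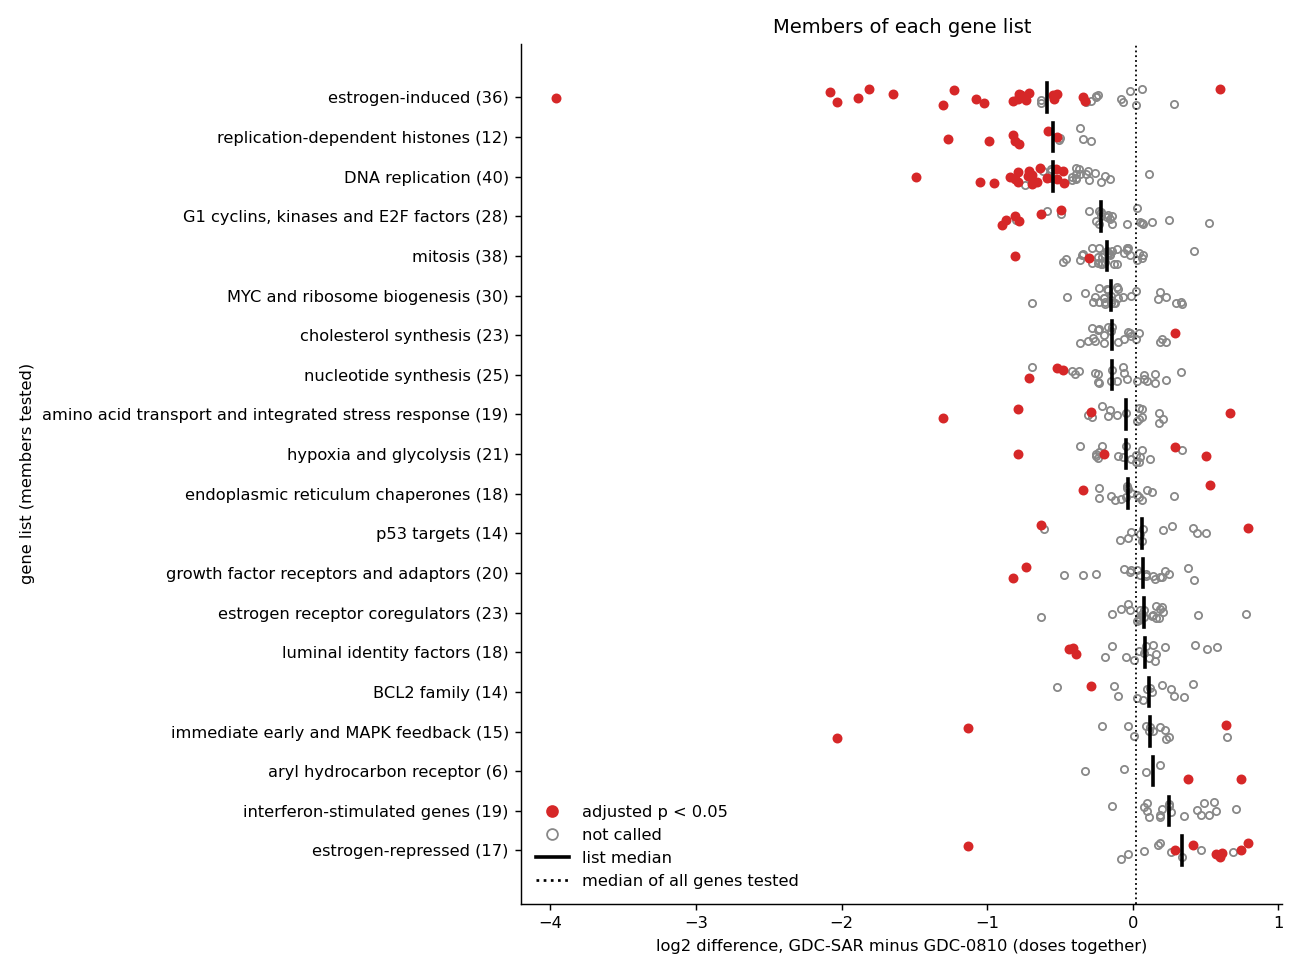
Each row is a gene list, with the number of members tested in brackets. The x axis is the log2 difference, GDC-SAR minus GDC-0810 with both doses together, filled points are members called at adjusted p < 0.05, open points are members not called, black bars are list medians and the dotted line is the median of all genes tested (0.022). The estrogen-induced, histone and DNA replication lists had medians of -0.59, -0.55 and -0.54, and the estrogen-repressed list had a median of 0.34.

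The receptor's own gene was read first. ESR1 (chromosome 6, 151656691 to 152129619) stood at 302, 353 and 327 TPM with 30 nM GDC-0810 and 311, 341 and 405 with 300 nM. With GDC-SAR it stood at 316, 365 and 388 TPM at 30 nM and 315, 350 and 428 at 300 nM. The groups overlapped, and the log2 difference was 0.08 (95% interval -0.12 to 0.29, adjusted p = 0.748). Whether the receptor protein differed is not a matter these RNA values can address. Of 23 estrogen receptor coregulator genes, limma called 0, with 3 higher and 1 lower at an unadjusted p under 0.05 (median log2 difference 0.08). NRIP1, an estrogen-induced corepressor gene, had the largest negative value among them at -0.63 (SE 0.218, adjusted p = 0.166).

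Among the classical targets, PGR and GREB1 separated the compounds and TFF1 did not. PGR, the progesterone receptor gene (chromosome 11, 101029624 to 101130524), stood at 31.3, 47 and 29.2 TPM with DMSO. With GDC-0810 it read 8.73, 9.33 and 8.04 TPM at 30 nM and 9.2, 10 and 9.06 at 300 nM, and with GDC-SAR 3.5, 2.86 and 3.15 at 30 nM and 4.22, 3.47 and 2.65 at 300 nM. Every GDC-0810 library lay above every GDC-SAR library, and all 12 lay below DMSO. The difference was -1.23 (SE 0.102, adjusted p = 7.41e-05), a 2.74-fold lower mean TPM with GDC-SAR. GREB1, a coregulator gene that the receptor induces strongly (chromosome 2, 11482341 to 11642788), followed the same order, from 19.7 ± 1.59 TPM with DMSO (SD, n = 3) to 7.07 ± 1.17 with GDC-0810 (n = 6) and 1.32 ± 0.462 with GDC-SAR (n = 6). Its libraries ranged from 5.49 to 8.86 TPM with GDC-0810 and from 0.764 to 2.12 with GDC-SAR, and the difference was -1.81 (SE 0.153, adjusted p = 8.12e-05).

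TFF1, a secreted trefoil peptide gene and a textbook receptor target, lay far below DMSO with either compound. Its 3 DMSO libraries read 3470, 2990 and 2260 TPM, the 6 with GDC-0810 ran from 595 through a median of 881 to 1040, and the 6 with GDC-SAR from 522 through 715 to 813. The compounds overlapped, and the difference was -0.24 (95% interval -0.57 to 0.09, adjusted p = 0.483). MYC, a growth-promoting transcription factor gene, likewise lay between 19.5 and 27.5 TPM with GDC-0810 and between 21.2 and 26.6 with GDC-SAR, below the 63.8 to 68.6 of DMSO (difference -0.07, 95% interval -0.27 to 0.13, adjusted p = 0.776). CCND1, the cyclin D1 gene (chromosome 11, 69641087 to 69654474), did separate them. It read 309, 260 and 231 TPM with DMSO, 158 to 186 (median 174) with GDC-0810 and 88.1 to 113 (median 99.3) with GDC-SAR, a difference of -0.78 (SE 0.0691, adjusted p = 1.17e-04). The pair thus differed in PGR, GREB1 and CCND1 and was not called different in TFF1 or MYC, where the TFF1 interval still holds falls as large as -0.57.

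Counted over the list of estrogen-induced genes, 36 of 42 passed the expression filter (median -0.59). Of these 36, 22 were called lower with GDC-SAR and 1 higher, against 1.78% and 1.58% of all genes tested, and 13 were not called. The higher one was CA12, a carbonic anhydrase gene, named here after its value was seen (162 ± 17.3 TPM with GDC-0810 and 245 ± 16.2 with GDC-SAR, n = 6 each, against 218 with DMSO, difference 0.60, SE 0.079, adjusted p = 0.00163). Against vehicle, all 6 GDC-SAR libraries lay below all 3 DMSO libraries in 33 of the 36 genes (16.5% of all genes tested did so), and all 6 GDC-0810 libraries did in 26 (14.9% of all genes). The 2 counts share the DMSO libraries. Because the list was written with earlier results of these data known, its counts describe it and do not test it. It holds KRT13, DSCAM-AS1, IL17RB and IL20, which are among the largest falls reported below.

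**Figure D2:**
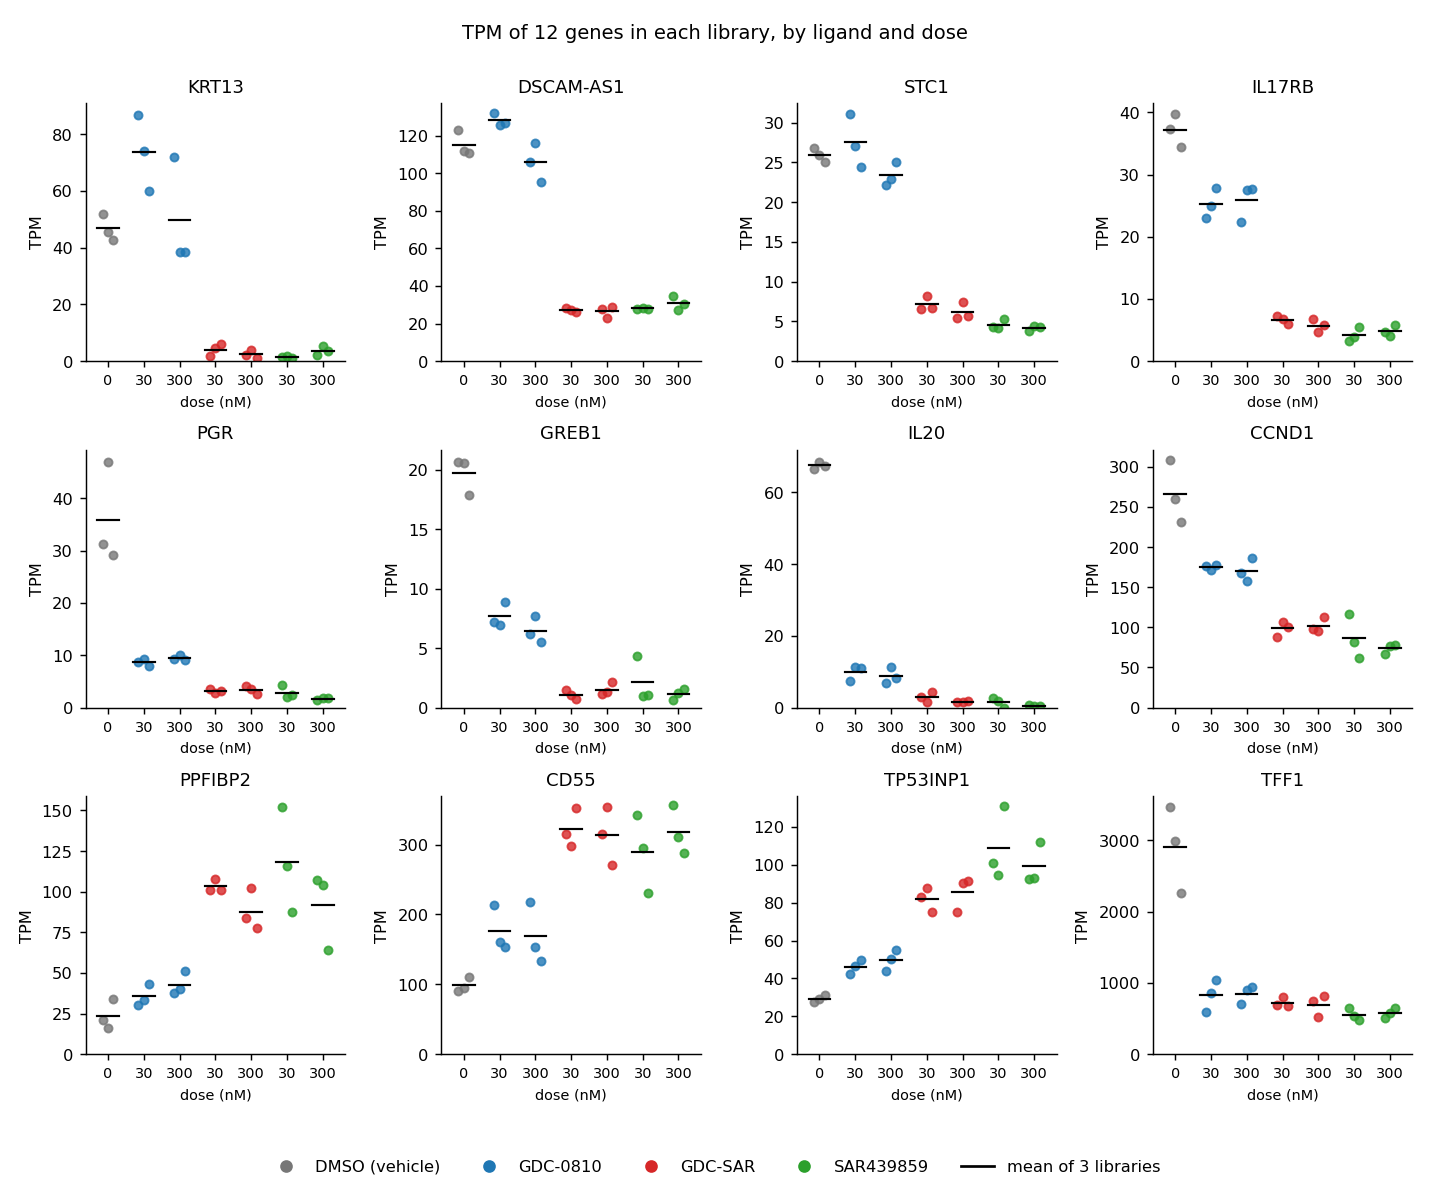
Each panel plots the TPM of 1 gene (y axis, from 0) in single libraries by dose in nM (x axis), with 3 points per group and a bar at their mean. KRT13, DSCAM-AS1 and STC1 were near the DMSO level with GDC-0810 and far lower with GDC-SAR, PGR, GREB1, IL20 and CCND1 stepped down from DMSO to GDC-0810 to GDC-SAR, PPFIBP2, CD55 and TP53INP1 were higher with GDC-SAR, and TFF1 overlapped between the compounds.

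The largest difference, that of KRT13, was among genes that stood near or above the vehicle level with GDC-0810. KRT13, a keratin gene of stratified epithelium that estrogen induces in breast cells (chromosome 17, 41500981 to 41505705), read 52, 45.6 and 42.7 TPM with DMSO. With GDC-0810 it read 86.7, 74.2 and 59.9 TPM at 30 nM and 72, 38.3 and 38.5 at 300 nM, and with GDC-SAR 1.84, 4.43 and 5.84 at 30 nM and 1.98, 4.01 and 1 at 300 nM. GDC-0810 libraries fell on both sides of DMSO, whereas every GDC-SAR library lay far below every library of both. The mean TPM was 19.3-fold lower with GDC-SAR (difference -3.96, SE 0.271, adjusted p = 2.03e-05).

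DSCAM-AS1, a long noncoding RNA gene expressed in luminal breast cancer (chromosome 21, 40383083 to 40385358), showed the same arrangement with less spread. It stood at 123, 112 and 111 TPM with DMSO, 132, 126 and 127 with 30 nM GDC-0810 and 106, 116 and 95.3 with 300 nM, against 28, 27.1 and 26.2 with 30 nM GDC-SAR and 27.8, 23.1 and 29 with 300 nM. The difference of -2.08 (SE 0.0785, adjusted p = 1.94e-07) had the smallest adjusted p of the genes named here. DSCAM-AS1 lies antisense to DSCAM, and whether the counting used strand is not given in the sources used here. STC1, which encodes the secreted hormone stanniocalcin, read 25.9 ± 0.833 TPM with DMSO, 22.2 to 31.1 with GDC-0810 and 5.38 to 8.19 with GDC-SAR (difference -1.80, SE 0.0985, adjusted p = 5.01e-06). SLC7A5, the large neutral amino acid transporter gene, read 84.5 to 96.8 TPM with DMSO, 57.4 to 86.9 with GDC-0810 and 28.4 to 32.7 with GDC-SAR (difference -1.30, SE 0.0878, adjusted p = 2.03e-05).

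In MIR503HG, the noncoding host transcript of a microRNA (chromosome X, 134543337 to 134546632), the compounds lay on opposite sides of vehicle. It read 32.7 to 49.8 TPM with DMSO, 80.1 to 115 with GDC-0810 and 17.4 to 31.4 with GDC-SAR, so no 2 of the 3 groups overlapped (difference -1.88, SE 0.15, adjusted p = 6.24e-05). IER3, a stress-response gene placed on the estrogen-repressed list, went against that list. It read 289 to 338 TPM with DMSO, 224 to 344 with GDC-0810 and 125 to 141 with GDC-SAR (difference -1.13, SE 0.0926, adjusted p = 7.41e-05). The luminal keratins differed among themselves. KRT8 read 1150 to 1240 TPM with DMSO, 1460 to 1720 with GDC-0810 and 1050 to 1270 with GDC-SAR (difference -0.44, adjusted p = 0.0036), so that GDC-0810 stood above vehicle and GDC-SAR overlapped it. KRT18 read 953 to 1030 TPM with DMSO, 671 to 814 with GDC-0810 and 642 to 708 with GDC-SAR, with both compounds below vehicle, and was not called (-0.19, adjusted p = 0.0613), except after median-of-ratios scaling or without GDC-0810 at 300 nM, replicate 2. KRT19 averaged 2530 TPM with DMSO, 2680 ± 166 with GDC-0810 and 2010 ± 65.8 with GDC-SAR (difference -0.41, adjusted p = 0.00185). KRT8, KRT19 and ZNF703, a luminal transcriptional repressor gene, were the 3 called of 18 luminal identity genes (3.36% of all genes were called). ZNF703 differed by -0.39 (adjusted p = 0.0183, and 0.0914 with all 39 libraries in the fit). The median of the 18 was 0.09.

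A second set stepped down from vehicle to GDC-0810 and again to GDC-SAR. IL17RB, an interleukin receptor gene, went from 34.5 to 39.7 TPM with DMSO to 22.3 to 27.8 with GDC-0810 and 4.62 to 7.26 with GDC-SAR (difference -1.89, SE 0.106, adjusted p = 5.01e-06). For IL20, a cytokine gene, the ranges were 66.6 to 68.5, 6.94 to 11.3 and 1.58 to 4.43 TPM (difference -1.65, SE 0.189, adjusted p = 7.09e-04). EGR3, an immediate early zinc-finger gene, read 20.3 to 29.7 TPM with DMSO, 2.35 to 6.83 with GDC-0810 and 0.0507 to 1.14 with GDC-SAR (difference -2.03, SE 0.196, adjusted p = 2.50e-04). None of these 3 genes had overlapping groups.

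CITED1, a transcriptional cofactor gene, read 14.5 to 33.4 TPM with DMSO, 9.97 to 18.5 with GDC-0810 and 0.367 to 4.6 with GDC-SAR (difference -2.41, SE 0.297, adjusted p = 0.00109). LINC01016, a noncoding RNA gene, read 16 to 19.8, 7.05 to 11.6 and 0.479 to 1.92 TPM in the same order (difference -2.23, SE 0.185, adjusted p = 7.41e-05). Among called genes with at least 5 TPM on average in the higher compound, a limit that EGR3 missed, the rest of the 15 largest falls were RAPGEFL1 (-1.66), RBM24, an RNA-binding protein gene (-1.49), SERPINA3, a secreted protease inhibitor gene (-1.46), KIF12, a kinesin gene (-1.42), and the replication genes CDC6 (-1.49) and HIST1H3F (-1.36). The rule for naming these genes asked that the 6 and 6 libraries not overlap. RET, a receptor tyrosine kinase gene, read 3.86 to 6.4 TPM with GDC-0810 and 2 to 3.13 with GDC-SAR (-0.82, adjusted p = 0.00233), and IGFBP4, which encodes a binding protein for insulin-like growth factors, read 62 to 83.2 and 38 to 50.9 TPM (-0.73, adjusted p = 6.55e-04). They were the 2 called of 20 growth factor receptor and adaptor genes, against 3.36% called among all genes.

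Many genes of DNA synthesis fell with GDC-SAR, and few genes of mitosis were called. Of 40 DNA replication genes, 18 were called lower and 0 higher (limma, 33 lower and 0 higher at an unadjusted p under 0.05), with a median of -0.54. Of 38 mitosis genes, 2 were called lower and 0 higher (11 lower and 1 higher unadjusted), with a median of -0.18. Over all genes tested, 1.78% were called lower and 1.58% higher, shares that also apply to the G1, nucleotide and histone lists below. The difference between the replication and mitosis lists was not tested. All 6 GDC-SAR libraries lay below DMSO in 38 of 40 replication genes and 26 of 38 mitosis genes (16.5% of all genes tested). All 6 GDC-0810 libraries did in 31 and 14 (14.9% of all genes tested).

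Many S-phase genes carry an E2F site close to their start, and E2F factors are held off until cyclin D1 and its kinases inactivate the retinoblastoma protein. The promoters of 4 called genes follow, the 250 bases before the start, from RefSeq (GRCh38.p14, all on the minus strand, printed 5′ to 3′), shown because they hold a match and because their products act along this path. Capitals mark matches to any of the E2F letters TTTGGCGC, TTTCGCGC, TTTCCCGC or TTTGCCGC on either strand, and matches that overlap run together as 1 stretch of capitals. E2F1 encodes the activating factor itself (chr20:33686386-33686635), CDC25A a phosphatase that activates cyclin-dependent kinases (chr3:48188418-48188667), MCM6 a subunit of the replicative helicase (chr2:135876444-135876693) and GINS2 a subunit of the complex that activates this helicase (chr16:85688955-85689204).
E2F1: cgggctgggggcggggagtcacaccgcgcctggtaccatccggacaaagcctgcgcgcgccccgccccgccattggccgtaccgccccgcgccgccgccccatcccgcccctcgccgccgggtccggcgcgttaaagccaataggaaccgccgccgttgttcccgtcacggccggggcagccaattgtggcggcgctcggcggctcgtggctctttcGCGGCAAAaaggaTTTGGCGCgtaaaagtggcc
CDC25A: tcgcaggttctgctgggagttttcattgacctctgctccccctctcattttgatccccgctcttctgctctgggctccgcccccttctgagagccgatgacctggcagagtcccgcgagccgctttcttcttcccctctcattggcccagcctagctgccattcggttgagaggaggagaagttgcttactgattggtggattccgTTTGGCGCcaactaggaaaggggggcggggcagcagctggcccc
MCM6: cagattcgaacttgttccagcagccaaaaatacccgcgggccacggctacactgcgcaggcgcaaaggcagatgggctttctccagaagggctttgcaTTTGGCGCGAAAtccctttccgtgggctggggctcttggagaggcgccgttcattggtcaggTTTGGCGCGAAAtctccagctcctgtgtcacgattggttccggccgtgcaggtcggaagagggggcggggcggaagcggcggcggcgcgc
GINS2: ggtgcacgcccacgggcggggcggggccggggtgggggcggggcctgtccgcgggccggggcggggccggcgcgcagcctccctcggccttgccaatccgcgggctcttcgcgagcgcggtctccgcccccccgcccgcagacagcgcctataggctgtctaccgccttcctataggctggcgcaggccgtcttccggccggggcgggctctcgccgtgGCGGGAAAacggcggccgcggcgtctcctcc

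The matches began 33 and 20 bases before the start in E2F1, 44 in CDC25A and 31 in GINS2. MCM6 held 2 overlapping pairs, with matches that began 152 and 148 and then 90 and 86 bases before the start. Over promoter windows of 300 bases (250 before the start and 50 after it), these letters were found in 21 of 45 windows of the DNA replication list (46.7%), in 12.9% of 233 windows of genes called lower, in 2.69% of 260 windows of genes called higher and in 4.93% of 13421 windows of all genes tested. No window of the estrogen-induced list held them (0 of 37). Against 4.93% of all windows, 37 windows are too few for this 0 to tell the list from all genes tested. Windows existed for 159 of the 256 genes called lower, 160 of the 228 called higher and 23 of the 36 estrogen-induced genes. The estrogen response element palindrome (GGTCA and TGACC with 3 bases between them) was in 0 windows of called genes. It was in only 2 of the 13421 windows of all genes tested (0.0149%), too few for the 0 to tell the sets apart. The single element AGGTCA (either strand) was in 8.15%, 7.69% and 10.2% of the windows of genes called lower, called higher and tested. A CCAAT box (CCAAT, either strand) stood in 43.3%, 33.8% and 34.8% of them. The single element can overlap an end of the palindrome where the next base allows it. A match is a description of the letters, not of binding.

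The genes behind these promoters were all lower with GDC-SAR. Mean TPM was 2.37-fold lower for CDC25A, 1.98-fold for E2F1, 1.78-fold for MCM6 and 1.64-fold for GINS2. E2F1 read 22.1 TPM in each of the 3 DMSO libraries, 12.2, 11.7 and 11.2 with 30 nM GDC-0810, 8.85, 9.62 and 11.9 with 300 nM, 4.92, 5.85 and 6.03 with 30 nM GDC-SAR and 6.19, 4.38 and 5.63 with 300 nM. Its 3 levels did not overlap, and the difference was -0.87 (SE 0.105, adjusted p = 9.70e-04). MCM6 read 23.2 to 25.9 TPM with DMSO, 7.67 to 11.9 with GDC-0810 and 4.79 to 6.41 with GDC-SAR (-0.72, SE 0.0968, adjusted p = 0.00182). GINS2 read 35.2 to 41.1, 28.7 to 37 and 17 to 23.3 TPM (-0.69, SE 0.0921, adjusted p = 0.0018), so that GDC-0810 overlapped vehicle for this gene and GDC-SAR did not. CDC25A was low throughout, at 4.81 to 6.53, 2.21 to 3.75 and 0.959 to 1.85 TPM (-0.81, SE 0.122, adjusted p = 0.0036).

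Other replication genes named by rank were CDC6, which loads the helicase onto origins (6.1 to 15.1 TPM with GDC-0810 and 1.62 to 4.38 with GDC-SAR, -1.49, adjusted p = 0.00399), FEN1, the flap endonuclease gene (-0.95, adjusted p = 8.80e-04), and DTL, which directs the degradation of licensing factors (-0.79, adjusted p = 5.04e-04). Among 28 genes of G1 cyclins, their kinases and E2F factors, 6 were lower and 0 higher (11 and 1 unadjusted, median -0.22). CCND1, E2F1 and CDC25A were among these 6, and so was the kinase inhibitor gene CDKN1A (-0.63, adjusted p = 0.0226), which was not called when any 1 of 5 libraries was left out (up to 0.0618). CDKN1A restrains the cycle, unlike the other 3. The nucleotide synthesis list of 25 genes had 3 called lower and 0 higher (5 and 1 unadjusted), the ribonucleotide reductase gene RRM2 (-0.71, adjusted p = 0.009), the thymidylate synthase gene TYMS (-0.52, adjusted p = 0.014) and the thymidine kinase gene TK1 (-0.48, adjusted p = 0.0212). TK1 was not called when any 1 of 5 libraries was left out (up to 0.0579).

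Replication-dependent histone genes, which are transcribed in S phase, gave 7 lower and 0 higher of 12 tested (9 and 0 unadjusted, median -0.55). HIST1H3B read 125 to 155 TPM with DMSO, 97.8 to 161 with GDC-0810 and 46 to 58.7 with GDC-SAR (-1.27, SE 0.117, adjusted p = 1.68e-04), so only GDC-SAR was clear of vehicle. Single histone genes are uncertain because their copies are nearly identical. The 2 mitosis genes called were CENPM, a centromere protein gene (-0.81, adjusted p = 0.0286, lost without any 1 of 7 libraries, up to 0.0776), and FOXM1, a transcription factor gene of late cell cycle (-0.30, adjusted p = 0.0301, lost without any 1 of 9, up to 0.0755). MKI67, the Ki-67 gene, ran from 53.3 to 59.7 TPM with DMSO, from 51.3 to 84.1 with GDC-0810 and from 41.5 to 51.7 with GDC-SAR. Its difference of -0.36 (95% interval -0.59 to -0.13, adjusted p = 0.0966) was not called.

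In the other direction, 7 of 17 estrogen-repressed genes were higher with GDC-SAR and 1, IER3, was lower, with a median of 0.34. Over all genes tested, 1.58% were called higher and 1.78% lower. TP53INP1, a stress and autophagy gene, read 27.3 to 31.2 TPM with DMSO, 42.2 to 54.8 with GDC-0810 and 74.8 to 91.4 with GDC-SAR (0.79, SE 0.0787, adjusted p = 3.15e-04). BLNK, the B-cell linker adaptor gene, read 9.14 to 11.3, 19.5 to 27.2 and 34.9 to 44 TPM (0.74, SE 0.0943, adjusted p = 0.00135), and BCAS1 read 42.4 to 50.9, 60.6 to 74.2 and 92.7 to 106 TPM (0.57, SE 0.0643, adjusted p = 7.09e-04). All 3 climbed in steps with no overlap. NDRG1, a differentiation-related gene, was called at 0.29 (adjusted p = 0.0439), but not without any 1 of 11 libraries (up to 0.101). The count of 7 became 3 without GDC-0810 at 30 nM, replicates 1 or 2, GDC-SAR at 30 nM, replicate 2, or GDC-SAR at 300 nM, replicate 3, and with no filter on expression. It became 4 without GDC-0810 at 300 nM, replicate 1, GDC-SAR at 30 nM, replicate 3, or GDC-SAR at 300 nM, replicate 2.

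Most of the 15 largest rises also climbed from vehicle to GDC-0810 to GDC-SAR, but some did not. PPFIBP2, a liprin adaptor gene (chromosome 11, 7513298 to 7657127), read 21.3, 16 and 33.9 TPM with DMSO, 30.5 to 51 with GDC-0810 and 77.5 to 108 with GDC-SAR (1.27, SE 0.129, adjusted p = 3.36e-04). CD55, which protects cells from complement (chromosome 1, 207321376 to 207386804), read 90.3, 94.7 and 111 TPM, then 134 to 218 and 271 to 354 (0.90, SE 0.126, adjusted p = 0.00237). C10ORF10 (1.36), the carnitine and organic cation transporter gene SLC22A4 (1.36), the hyaluronan synthase gene HAS3 (1), the muscle atrophy ubiquitin ligase gene FBXO32 (0.78) and the reticulon gene RTN2 (0.76) were called in the same direction.

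MBOAT2, a phospholipid acyltransferase gene, differed in that GDC-0810 (28 to 44.5 TPM) covered the DMSO range of 32.3 to 39, while GDC-SAR read 66.5 to 92.4 (difference 1, SE 0.128, adjusted p = 0.00138). SDC4, a heparan sulfate proteoglycan gene, read 55.6 to 83.4 TPM with DMSO, 31.6 to 59 with GDC-0810 and 68.8 to 85.9 with GDC-SAR (0.77, SE 0.148, adjusted p = 0.0152). For SDC4 it was GDC-0810 that lay low, and GDC-SAR overlapped vehicle. GAREML did likewise, at 2.74 to 10 TPM with DMSO, 0.141 to 2.38 with GDC-0810 and 2.66 to 11.7 with GDC-SAR (1.91, SE 0.333, adjusted p = 0.0089, and 0.0532 with all 39 libraries in the fit). The mitochondrial carbonic anhydrase gene CA5B (0.98) and the transcripts RP11-279F6.2 (0.87) and RP11-279F6.1 (0.80) were also among the 15.

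Signalling and metabolic lists held calls in both directions, and their counts stand against 3.36% called among all genes. The immediate early and MAPK feedback list had 3 of 15 called, with EGR3 and IER3 lower and PHLDA1, a pleckstrin-domain gene, higher (2.42 to 3.36 TPM with GDC-0810 and 4.55 to 6.11 with GDC-SAR, 0.64, adjusted p = 0.00597). Hypoxia and glycolysis genes split, with the glucose transporter gene SLC2A1 lower (83.6 to 117 against 51.1 to 62.1 TPM, -0.79, adjusted p = 6.89e-04) and the hexokinase gene HK2 higher (0.50, adjusted p = 0.0184). NDRG1, again, and the pyruvate kinase gene PKM (-0.20, adjusted p = 0.0491, lost without any 1 of 10 libraries, up to 0.12) were the other calls of 21. In the list of amino acid transport and the integrated stress response (19 tested), SLC7A5, STC2 (-0.79, adjusted p = 0.0242, lost without any 1 of 7 libraries, up to 0.0604) and SLC7A1 (-0.29, adjusted p = 0.0472, lost without any 1 of 11, up to 0.111) were lower. DDIT4, an mTORC1 inhibitor gene, was higher there (63.3 to 97 against 119 to 142 TPM, 0.67, adjusted p = 0.00191).

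Of 6 genes of the aryl hydrocarbon receptor pathway, 2 targets were higher. NQO1, a quinone reductase gene, read 251 to 260 TPM with DMSO, 223 to 280 with GDC-0810 and 312 to 335 with GDC-SAR (0.38, SE 0.0577, adjusted p = 0.0036). CYP1A1, a xenobiotic-metabolising enzyme gene, averaged 3.18 ± 1.03 and 5.86 ± 0.739 TPM (0.74, adjusted p = 0.0326, lost without any 1 of 9 libraries, up to 0.0795). The targets CYP1B1 (-0.33, 95% interval -0.56 to -0.10, adjusted p = 0.13) and TIPARP (0.09, adjusted p = 0.655), the receptor gene AHR (-0.06) and its partner ARNT (0.19) were not called. Chaperone genes of the endoplasmic reticulum had XBP1, a transcription factor of the unfolded protein response, lower (-0.34, adjusted p = 0.0064, and 0.0701 with all 39 libraries in the fit). HERPUD1, a gene of protein degradation at that organelle, was higher (0.53, adjusted p = 0.0304, lost without any 1 of 7 libraries, up to 0.0764), and the other 16 were not called.

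Of 14 p53 targets, TP53INP1 was higher and CDKN1A lower. MDM2, which encodes the ubiquitin ligase for p53, read 157 to 232 TPM with DMSO, 222 to 377 with GDC-0810 and 133 to 241 with GDC-SAR (-0.61, 95% interval -0.96 to -0.26, adjusted p = 0.0674, not called). Of 14 BCL2 family genes, BCL2 alone was called (-0.29, adjusted p = 0.0408, lost without any 1 of 11 libraries, up to 0.0957), and of 23 cholesterol synthesis genes, INSIG1 alone (0.29, adjusted p = 0.0442, lost without any 1 of 10, up to 0.11). Interferon-stimulated genes (19 tested) had 0 called with limma and 2 higher at an unadjusted p under 0.05, with a median of 0.25 that was 0.69 at 30 nM and 0.07 at 300 nM. MYC partners and ribosome biogenesis genes (30 tested) had 0 called and 2 higher and 2 lower unadjusted (median -0.15).

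Whether the difference between the compounds depended on dose was tested next. At 30 nM limma called 120 genes (0.833%), 33 higher and 87 lower with GDC-SAR (10.4% at an unadjusted p under 0.05), and at 300 nM 99 genes (0.687%), 36 higher and 63 lower. The means of these 2 comparisons share no library, but both tests use 1 estimate of each gene's spread, taken from all 12 libraries. The 2 sets of calls are therefore not independent. The 60 genes called at both doses were 50% of the 30 nM calls and 60.6% of the 300 nM calls, and all 60 had the same sign. Of the 120, 116 had the same sign at 300 nM, and of the 99, 97 had the same sign at 30 nM, against 63% of all genes tested. KRT13 differed by -3.96 at either dose, DSCAM-AS1 by -2.20 at 30 nM and -1.95 at 300 nM, PGR by -1.22 and -1.24 and CCND1 by -0.82 and -0.74.

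The dose by compound interaction called 0 genes with limma (527 at an unadjusted p under 0.05, 3.66%), with an SE near 0.301 for a typical gene. One gene was called with a pseudocount of 0.1, 3 without GDC-0810 at 30 nM, replicate 3, or GDC-SAR at 30 nM, replicate 2, and 1 without GDC-SAR at 30 nM, replicate 1. No change of the difference with dose was detectable at this precision. The counts at single doses compare means of 3 against 3 libraries, with the spread shared over both doses. They moved by over 1.5 times without any 1 of 9 libraries each. The 30 nM count fell furthest, to 20, without GDC-0810 at 30 nM, replicate 2, and the 300 nM count to 25 without GDC-SAR at 300 nM, replicate 2. With all 39 libraries in the fit they were 185 and 180.

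**Figure D3:**
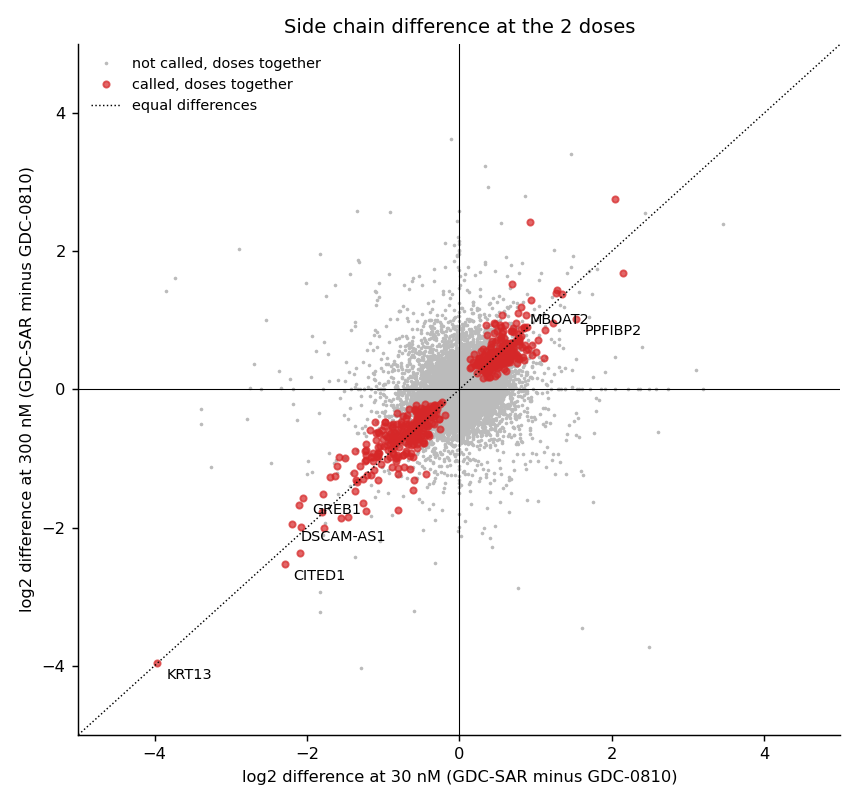
Each point is a gene, with its log2 difference (GDC-SAR minus GDC-0810) at 30 nM on the x axis and at 300 nM on the y axis. Red points are the 484 genes called with the doses together and grey points the others, and the dotted line marks equal differences. KRT13 sits at -3.96 on both axes, and the called genes lie along the line in both directions.

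The same exchange was made on the AZD9496 scaffold, with libraries that the present pair does not share. There 1516 genes were called (10.5%), 270 higher (1.87%) and 1246 lower (8.65%) with AZD-SAR, and the median over all genes was -0.082. These counts come from the main setting only. Scaling, filters and leaving out libraries were not tried for the AZD9496 pair on its own. Genes called on both scaffolds numbered 265, which is 54.8% of the GDC-0810 scaffold calls and 17.5% of the AZD9496 scaffold calls, and 263 of them had the same sign. Of the 484 calls on the GDC-0810 scaffold, 438 had the same sign on the AZD9496 scaffold, against 55.2% of all genes. By direction, 239 of the 256 genes lower with GDC-SAR were negative there, and 199 of the 228 higher were positive. The median over all genes was below 0 there, so 55.2% is not the measure for either direction alone. As a description across genes, which are not independent, Pearson's r was 0.23 over all 14404 and 0.84 over the 484. KRT13 differed by -3.23 on the AZD9496 scaffold, DSCAM-AS1 by -1.87, IL17RB by -2.24, STC1 by -1.95, GREB1 by -1.51 and PGR by -0.95.

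The test of the difference between the scaffolds called 5 genes (0.0347%, of which 0.0278% positive and 0.00694% negative, with 2625 at an unadjusted p under 0.05). The median of all genes was 0.113 in this test and 0 after median-of-ratios scaling, a shift of 0.113 that leaves 1 of the 5 called. FXR1, an RNA-binding protein gene, averaged 131 ± 11.6 and 162 ± 9.29 TPM on the GDC-0810 scaffold and 181 ± 18.8 and 146 ± 20.9 on the AZD9496 scaffold (means of GDC-0810, GDC-SAR, AZD9496 and AZD-SAR in that order, SD, n = 6 each, difference between scaffolds 0.62, SE 0.104, adjusted p = 0.0436). CFDP1 differed by 0.57 (SE 0.0864, adjusted p = 0.0305), SPAG4 by 1.54 (SE 0.267, adjusted p = 0.0458) and MTRNR2L3, a humanin-like gene near-identical to mitochondrial sequence and so uncertain, by -1.60 (SE 0.252, adjusted p = 0.0305). Leaving out single libraries ended the call of CFDP1 in 12 of 24 cases, of MTRNR2L3 in 14 and of FXR1 and SPAG4 in 17. The count was 0 without any 1 of 12 libraries, reached 819 without AZD-SAR at 300 nM, replicate 3, and 45 without GDC-0810 at 300 nM, replicate 3, and moved by over 1.5 times without 20 of the 24. After scaling the gene still called was MTRNR2L3.

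Some genes that the exchange moved on the GDC-0810 scaffold had differences near 0 on the other. CA5B differed by 0.98 on the first and 0.01 on the second, and GAREML by 1.91 and 0.02. Their differences between scaffolds were 0.97 (95% interval 0.47 to 1.47, adjusted p = 0.107) and 1.89 (0.71 to 3.07, adjusted p = 0.12), which did not pass the threshold. For CCND1 the exchange gave -0.78 on the GDC-0810 scaffold and -1.22 on the AZD9496 scaffold, and the difference of 0.44 (0.20 to 0.67, adjusted p = 0.111) was not called either. For TFF1 the values were -0.24 and -0.83, the latter called on its own (adjusted p = 0.00118), with a difference between scaffolds of 0.59 (0.18 to 1, adjusted p = 0.143).

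**Figure D4:**
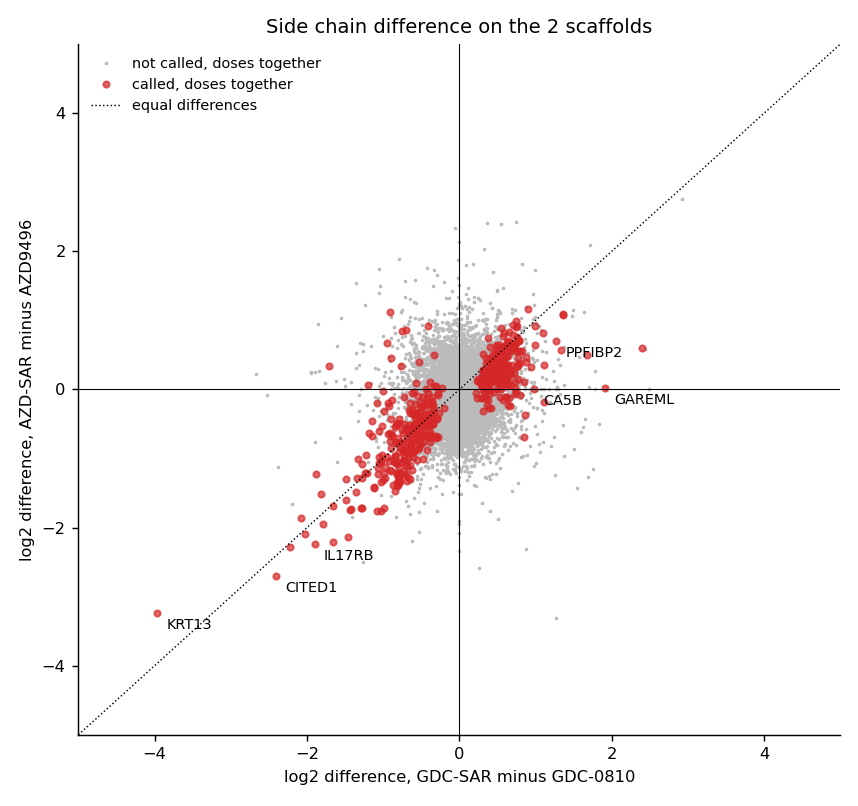
Each point is a gene, with its log2 difference for the side chain exchange on the GDC-0810 scaffold on the x axis (GDC-SAR minus GDC-0810) and on the AZD9496 scaffold on the y axis (AZD-SAR minus AZD9496), both doses together. Red points are the 484 genes called on the GDC-0810 scaffold and the dotted line marks equal differences. KRT13 (-3.96 and -3.23), CITED1 (-2.41 and -2.70) and IL17RB (-1.89 and -2.24) lie far below 0 on both axes, while CA5B and GAREML lie near 0 on the y axis.

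The hybrid was last set beside SAR439859, which shares its side chain but not its scaffold. Limma called 0 genes between GDC-SAR and SAR439859 (1231 at an unadjusted p under 0.05, 8.55%). The count was 1 with a pseudocount of 0.1, 4 after median-of-ratios scaling, 3 with the 300 nM libraries alone, 1 without GDC-SAR at 300 nM, replicate 3, and 51 with all 39 libraries in the fit, which pools the spread of every group. Differences, GDC-SAR minus SAR439859, were 0.23 for KRT13 (95% interval -0.55 to 1.02), -0.09 for GREB1 (-0.68 to 0.51), 0.43 for PGR (0.03 to 0.83), 0.34 for CCND1 (0.05 to 0.64), 0.38 for IL17RB (0.05 to 0.72) and 0.51 for STC1 (0.24 to 0.77). The intervals of PGR, CCND1, IL17RB and STC1, which are not adjusted over genes, lay above 0, so the absence of calls does not show that the 2 compounds act alike. Over the estrogen-induced list the median was 0.22 and over the DNA replication list 0.19, against -0.02 over all genes. The 30 nM SAR439859 libraries were uneven. CITED1, for example, read 0, 0 and 21.4 TPM in them and 0.345 to 1.1 at 300 nM. Pairs compared in all numbered 3, the GDC-0810 pair, the AZD9496 pair and the hybrid with SAR439859, with p-values adjusted over genes within each pair.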

How the data were processed

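RNA of 39 libraries was prepared with a stranded kit and aligned with STAR to GRCh38, per the submitters' processing notes and the labels' protocols. For versions, the counting tool, its use of strand and the annotation, nothing is stated in the sources used here. The authors deposited 1 table of TPM for 46706 gene symbols, whose columns each sum to 1000000. Read depth is unknown, so no counting interval is given.

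From these values log2(TPM + 1) was computed and 14404 genes whose mean over the 39 libraries reached 1 TPM were kept. Limma 3.58.1 (R 4.3.3, with an intensity trend) was fitted to the 12 libraries with dose and compound as terms, and p-values were adjusted by Benjamini-Hochberg over all genes, with calls at 0.05. Differences at single doses and interactions came from fits of group means. Groups came from the labels, which give 3 libraries per group while the series text speaks of duplicates.

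Members and lists were chosen with earlier results of these data known. Genes always named were ESR1, MKI67, MYC, CCND1, TFF1, GREB1 and PGR. Added to these were up to 15 called genes in each direction by size, with at least 5 TPM in the higher compound and no overlap between libraries, up to 4 members of each of 22 lists by smallest p, and called interaction genes. Some genes that this rule names are not reported here. Positions are from GENCODE 29 (GRCh38), which matched 83.61% of the symbols tested. Promoters from RefSeq (GRCh38.p14) matched 9170 genes tested. The fit was tested on simulated data with 200 of 14404 genes changed. It recovered 76% of changes of 1 log2 unit and 28% of changes of 0.5, and 6.31% of its calls were false. The changed genes were drawn from those at higher levels, in a single simulation without a dose effect. Recovery among genes at low levels was not measured. Alternatives, which were not run for the AZD9496 pair on its own, were other pseudocounts, filters, scaling, all libraries in the fit and leaving out each library. Those restricted to protein-coding genes or to 300 nM, without genes at 0 throughout, or with robust moderation were chosen after seeing the data.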

Additional observations from a re-analysis of the deposited data

Results flagged for a closer look

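Of 72 sets of 6 libraries examined for a library apart from the rest, 2 held one, where chance gives about 1 in 20. The 2 are thus no more than chance gives, and are listed as a description only. MYC read 26.6 TPM in GDC-SAR at 300 nM, replicate 3, against 21.2 to 22.9 in the other 5 GDC-SAR libraries. RP11-279F6.2 read 21.2 TPM in GDC-SAR at 300 nM, replicate 2, against 16.4 to 18 in the others.

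Limma's test of a difference in the side chain effect between the GDC-0810 and AZD9496 scaffolds called CFDP1 (0.57), FXR1 (0.62), SPAG4 (1.54) and MTRNR2L3 (-1.60). These calls were not stable. Leaving out single libraries ended the call of CFDP1 in 12 of 24 cases, of MTRNR2L3 in 14 and of FXR1 and SPAG4 in 17. After median-of-ratios scaling, MTRNR2L3 alone kept its call. On the GDC-0810 scaffold itself FXR1 (0.31, adjusted p = 0.0121), SPAG4 (0.85, adjusted p = 0.0192) and MTRNR2L3 (-0.76, adjusted p = 0.00399) were called, and CFDP1 was not. The call of SPAG4 on the GDC-0810 scaffold was lost without any 1 of 3 libraries (adjusted p up to 0.0516). They were GDC-0810 at 30 nM, replicate 2, GDC-SAR at 30 nM, replicate 2, and GDC-SAR at 300 nM, replicate 2.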

How the results depend on the processing

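No paired analysis was run, because the labels carry no replicate number that the groups share. The replicate numbers used here follow library order within each group. By that order, replicate 1 had the lowest first principal component in each group. It read -22.3 and -57.9 with GDC-0810 at 30 and 300 nM, and -1.8 and -2.41 with GDC-SAR. A fit with this order as a block was not tried. No result reversed under any alternative run. Of 75 named genes called, 58 kept the call in every alternative and 17 lost it in at least 1, and 9 of 40 not called gained it. Leaving out each library in turn gave 140 to 211 genes higher, 167 to 260 lower, 18 to 20 estrogen-induced members lower, 3 to 6 estrogen-repressed members higher, 14 to 18 replication members lower, 20 to 125 genes at 30 nM, 25 to 93 at 300 nM, 0 to 3 for the dose interaction, 0 to 819 for the scaffold interaction and 0 to 1 against SAR439859. With no expression filter the counts were 164 lower, 3 estrogen-repressed members higher, 65 at 30 nM, 65 at 300 nM and 1 for the scaffold interaction, where more genes share the adjustment. With all 39 libraries they were 185 at 30 nM, 180 at 300 nM, 3 for the scaffold interaction and 51 against SAR439859. A minimum of 5 TPM gave 3 for the scaffold interaction. Median-of-ratios scaling gave 1 for it and 4 against SAR439859. A pseudocount of 0.1 gave 1 for the dose interaction and 1 against SAR439859, and the 300 nM libraries alone gave 3 against SAR439859. Apart from what the filter itself changes, the cause was not tested.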
